A study of Mus musculus with 11 samples.

Results

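Calcium inside neurons is released from the endoplasmic reticulum by tetrameric channels and is cleared by ATP-driven pumps. The inositol trisphosphate receptors (Itpr genes) open when metabotropic receptors activate phospholipase C, and the ryanodine receptors (Ryr genes) open on calcium itself. Atp2a2 encodes SERCA2, which refills the endoplasmic reticulum, and the Atp2b genes encode the plasma membrane pumps that export calcium. Itpr1 is known as the dominant release channel of Purkinje cells, the output neurons of the cerebellar cortex. The messenger RNAs described here were those of 10 such genes, chosen by name: Itpr1, Itpr2, Ryr1, Ryr2, Ryr3, Atp2a2, Atp2b1, Atp2b2, Atp2b3 and Atp2b4. All 10 had a row among the 30986 rows of the fragment count table.

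RNA fragments attached to FMRP, whose loss causes Fragile X syndrome, were recovered by immunoprecipitation after ultraviolet crosslinking from cerebellum, cortex and hippocampus of mice at postnatal day 13. The labels give the region of each library and no genotype, strain or sex. The titles carry codes and a letter, s or p, that are uneven over the groups: both cerebellum samples are s-titled, and 4 of the 7 forebrain samples are p-titled, with a code that no cerebellum sample has. Input libraries and controls lacking FMRP were not analysed here, and the amount of an RNA and its binding therefore cannot be told apart. Of the libraries, 2 were labelled cerebellum, 3 cortex and 5 hippocampus. Hippocampus 1 and 2 could not be told apart from sampling noise and were counted as 1 sample (hippocampus 1+2), which left 4 hippocampus samples. Cortex and hippocampus samples together are called forebrain (n = 7). One further library, with a title and a tissue label that name different regions, entered no comparison. Nothing in the labels ties a sample to an animal or a pool of animals. The p-values thus reflect only how far these samples spread, and that spread may be technical.

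Total counts were 95454 and 197382 in cerebellum, 11898 to 55784 in cortex and 21531 to 130306 in hippocampus. Levels are counts scaled to a sample total of 1000000 (CPM), and 3 counts, the limit that a count of 0 allows, correspond to 15.2 CPM in the deepest sample and 252 CPM in the shallowest. Intervals and limits account for counting error alone, since PCR copies of a molecule are counted too. Of the granule cell markers, 5 of 5 tested were higher in cerebellum than in forebrain (edgeR, adjusted p under 0.05). Of the telencephalic excitatory markers, 5 of 8 tested were lower. Each list holds 12 genes, and the rest did not pass the filter on low counts. The granule cell marker Chn2 averaged 299 CPM in cerebellum and 34.4 CPM in forebrain. The telencephalic marker Nrgn averaged 7.6 CPM in cerebellum and 185 CPM in forebrain. Such markers passed only through the group where they were higher, so these shares are in part set by that filter. Between cortex and hippocampus 0 of 4 tested hippocampal markers differed. Over all 1720 tested rows 3.9% were called higher in cerebellum than in forebrain and 3.78% lower, and 0% were called between cortex and hippocampus. Cortex 3, hippocampus 3 and hippocampus 4 stood apart: 12.2 to 12.6% of their counts lay on predicted gene names, against 3.1 to 7.49% in the other samples. In those 3 samples the 10 genes took 0.201 to 0.319% of all counts, against 0.718 and 0.733% in cerebellum and 0.401 to 0.781% in the other forebrain samples.

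The stretches below show what the genes share and how far their messages can be told apart by sequence, which matters because counts of similar genes are compared. They are coding sequence of the GENCODE M21 transcripts (GRCm38), 5′ to 3′, and capitals mark the codons of the selectivity filter, the narrowest part of the pore, in the 5 release channels.
Itpr1: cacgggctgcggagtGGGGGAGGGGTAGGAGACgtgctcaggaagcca
Itpr2: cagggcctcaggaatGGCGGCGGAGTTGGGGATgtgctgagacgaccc
Ryr1: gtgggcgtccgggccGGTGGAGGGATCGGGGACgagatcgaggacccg
Ryr2: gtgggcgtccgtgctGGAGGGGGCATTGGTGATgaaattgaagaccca
Ryr3: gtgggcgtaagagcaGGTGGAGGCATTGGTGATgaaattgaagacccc
Of these 48 bases, Ryr2 and Ryr3 differ at 7, Ryr1 and Ryr2 at 12, Itpr1 and Itpr2 at 17, and Itpr1 and Ryr2 at 25.

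In the plasma membrane pumps Atp2b1, Atp2b2 and Atp2b4, capitals mark the codons of the aspartate that is phosphorylated in each transport cycle and of the residues that follow it.
Atp2b1: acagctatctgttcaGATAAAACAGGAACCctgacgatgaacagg
Atp2b2: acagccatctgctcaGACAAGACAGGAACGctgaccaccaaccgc
Atp2b4: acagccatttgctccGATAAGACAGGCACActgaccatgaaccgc
Over these 45 bases Atp2b2 and Atp2b4 differ at 7, and Atp2b1 differs from each of them at 10. The longest run of identical bases between any pair of the 10 coding sequences was 56 bases, between Atp2b2 and Atp2b3. The next longest runs were 35 bases, between Ryr1 and Ryr2 and between Atp2b1 and Atp2b3, and Itpr1 and Itpr2 shared 28. Of 3631 windows of 30 bases in Atp2b3, 27 also occurred in Atp2b2. The length of the fragments and the treatment of multiply mapped ones are not stated in the labels, so counts from those stretches are uncertain for this pair.

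Itpr1, on chromosome 6 from 108213096 to 108551109 of the plus strand (GRCm38), was the only one of the 10 genes called between regions, and it was higher in cerebellum. It had 2629.5 and 2786 CPM in the cerebellum samples, against 1042, 699 and 336 CPM in cortex 1 to 3 and 560.2, 230.1, 365 and 789.6 CPM in hippocampus 1+2, 3, 4 and 5. Both cerebellum samples stood above every forebrain sample, and the lowest forebrain values were those of cortex 3, hippocampus 3 and hippocampus 4. The means were 2708 ± 111 CPM in cerebellum (SD, n = 2) and 574 ± 289 CPM in forebrain (n = 7). The log2 fold change was 2.33 (SE 0.52, adjusted p = 0.000479, edgeR) against forebrain, 2.20 (SE 0.63, adjusted p = 0.019) against cortex alone and 2.47 (SE 0.55, adjusted p = 0.000504) against hippocampus alone. These 3 comparisons share the cerebellum samples and are not separate results. Across all 1720 tested rows 3.9% were called higher and 3.78% lower against forebrain (7.67% in all), 2.21% higher and 2.38% lower against cortex (4.59% in all), and 3.08% higher and 3.31% lower against hippocampus (6.4% in all). The 10 genes had 1 call of 10 in each comparison, a share that 1 gene sets and that is close to the share of all rows.

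The Itpr1 value was positive under all 18 alternative settings and ranged between 1.99 and 3.09, and it was called in 12 of them. The call was lost without cerebellum 1 (3.09, adjusted p = 0.286), without cerebellum 2 (1.99, adjusted p = 0.203), without cortex 1 (2.76, adjusted p = 0.183) and with the s-titled libraries alone (2.38, adjusted p = 0.301, edgeR). It was also lost when library totals replaced TMM factors (2.46, adjusted p = 0.0769) and when all rows of low count were kept (2.74, adjusted p = 1, edgeR). Each library title holds a numeric code, whose meaning the labels do not give. The codes are called A (cerebellum 1, cortex 1 and hippocampus 1+2), B (cerebellum 2 and hippocampus 3) and C (cortex 2 and 3, hippocampus 4 and 5). Within code A the log2 ratio of Itpr1 CPM was 1.72, and within code B, which has hippocampus 3 alone for the forebrain, it was 3.6. With TMM factors these were 1.93 and 2.99. Without cortex 3, hippocampus 3 and hippocampus 4, a choice made after seeing the data, the value was 1.99. In that fit cerebellum 2 is the only sample of its code, so the value rests on cerebellum 1 alone. With the title code dropped as well, the value was 2.08 (adjusted p = 0.000261, edgeR). Against cortex alone the same 6 settings lost the call, and so did leaving out cortex 2 (2.26, adjusted p = 0.184), hippocampus 4 (2.26, adjusted p = 0.165) or hippocampus 5 (2.04, adjusted p = 0.3). Against hippocampus alone those 6 settings lost it too, with adjusted p-values between 0.0632 and 1 in edgeR.

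**Figure D1:**
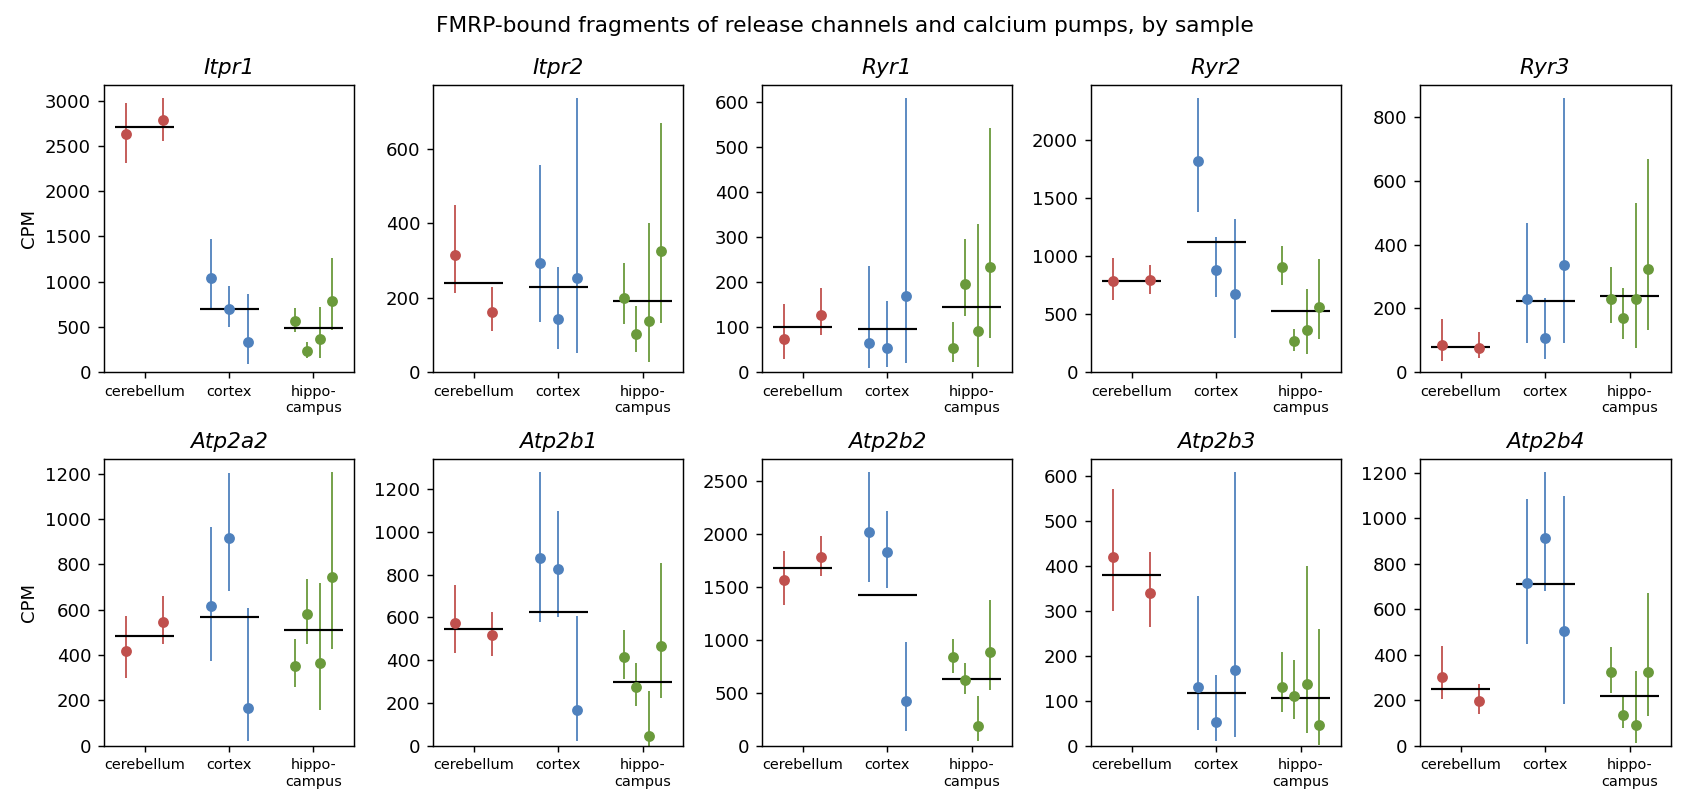
Level of each gene in CPM (vertical axes, each from 0) in every sample of cerebellum, cortex and hippocampus. Points are samples in the order of their numbers, bars are 95% exact binomial intervals of counting error, and black lines are group means. Both cerebellum samples lie above all forebrain samples for Itpr1 and Atp2b3 and below them all for Ryr3.

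Itpr2, the isoform best known from glia and peripheral tissues, showed no such separation. It had 314 and 162 CPM in cerebellum, against 293, 143 and 252 CPM in cortex and 199.5, 102, 137 and 325 CPM in hippocampus. The groups overlapped, and the log2 fold change against forebrain was 0.43 (SE 0.54, adjusted p = 0.796, edgeR). These levels rest on 62 counts in cerebellum and 68 in forebrain.

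Ryr2, the ryanodine receptor most abundant in brain and heart, had nearly equal levels in both cerebellum samples and spread widely over the forebrain. It had 786 and 790.3 CPM in cerebellum, against 1823, 878 and 672 CPM in cortex and 906, 264, 365 and 557 CPM in hippocampus. Cerebellum thus lay inside the forebrain range, and the fitted log2 difference was -0.06 (SE 0.5, adjusted p = 0.989, edgeR). The title codes differed in direction: within code A the log2 ratio was -0.8, and within code B, which has hippocampus 3 alone for the forebrain, it was 1.58. With TMM factors these were -0.57 and 0.97. Within the forebrain, cortex averaged 1125 ± 613 CPM over 3 samples and hippocampus 523 ± 283 CPM over 4 (SD), and the fitted difference of 0.8 on the log2 scale was not called (SE 0.46, adjusted p = 0.999, edgeR).

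Ryr3, a ryanodine receptor found at lower levels in brain, was the one gene of the 10 with both cerebellum samples below all forebrain samples. It had 83.8 and 76 CPM in cerebellum, against 228, 108 and 336 CPM in cortex and 230.2, 170.5, 228 and 325 CPM in hippocampus. The cerebellum values rest on 8 and 15 counts. Only forebrain samples were high enough to carry Ryr3 past the filter on low counts, so its separation is in part set by that filter. The log2 fold change of -1.31 (SE 0.61) did not pass the threshold (adjusted p = 0.22, edgeR), and against hippocampus alone it was -1.64 (SE 0.58, adjusted p = 0.0624, edgeR). The second value passed in 2 of 18 alternative settings, with 10 separate libraries (-1.64, adjusted p = 0.0219) and without cortex 3 (-1.61, adjusted p = 0.035) in edgeR. The setting with 10 libraries counts hippocampus 1 and 2 as separate samples, although they could not be told apart from sampling noise.

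Ryr1, the release channel of skeletal muscle, which Purkinje cells also express, had the lowest or second lowest mean of the 10 genes per coding length in each region. It had 73.3 and 127 CPM in cerebellum, against 65.1, 53.8 and 168 CPM in cortex and 53.7, 196, 91.1 and 232 CPM in hippocampus. The groups overlapped, and the log2 fold change against forebrain was -0.17 (SE 0.81, adjusted p = 0.969, edgeR). Hippocampus 3 held 23 counts of it and each of the other forebrain samples 2 to 7. Of 11 muscle markers only Ttn, the titin gene, was tested, and it averaged 404 CPM in cerebellum, against 296 CPM in cortex and 465 CPM in hippocampus. The other muscle markers had means between 0 CPM and the 67.5 CPM of Myh6 in hippocampus, and Ckm, the muscle creatine kinase, had 2.53 CPM in cerebellum, against 0 CPM in cortex and 1.92 CPM in hippocampus. The part of such cells in the Ryr1 levels was not tested.

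Within the family, where the scale of a library cancels, the same counts can be read as the make-up of the release channels. Itpr1 took 67.7 and 70.7% of the counts of the 5 channels in cerebellum, against 30.2, 37.1 and 19% in cortex and 28.7, 23.9, 30.8 and 35.4% in hippocampus. The 95% Wilson intervals were 62.7 to 72.2% and 67.4 to 73.8% in cerebellum, against 28.5 to 46.7% in cortex 2, which had the highest forebrain share. Ryr2 took 20.2 and 20.1% in cerebellum, against 38.1 to 52.8% in cortex and 25 to 46.5% in hippocampus. Ryr3 took 2.16 and 1.93% in cerebellum, against 5.71 to 19% in cortex and 11.8 to 19.2% in hippocampus. For each of these shares the cerebellum and forebrain samples did not overlap, whereas the CPM of Ryr2 did. Families beyond the channels and plasma membrane pumps were not compared in this way. The shares are not independent of each other, since a larger share of Itpr1 lowers all the rest.

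**Figure D2:**
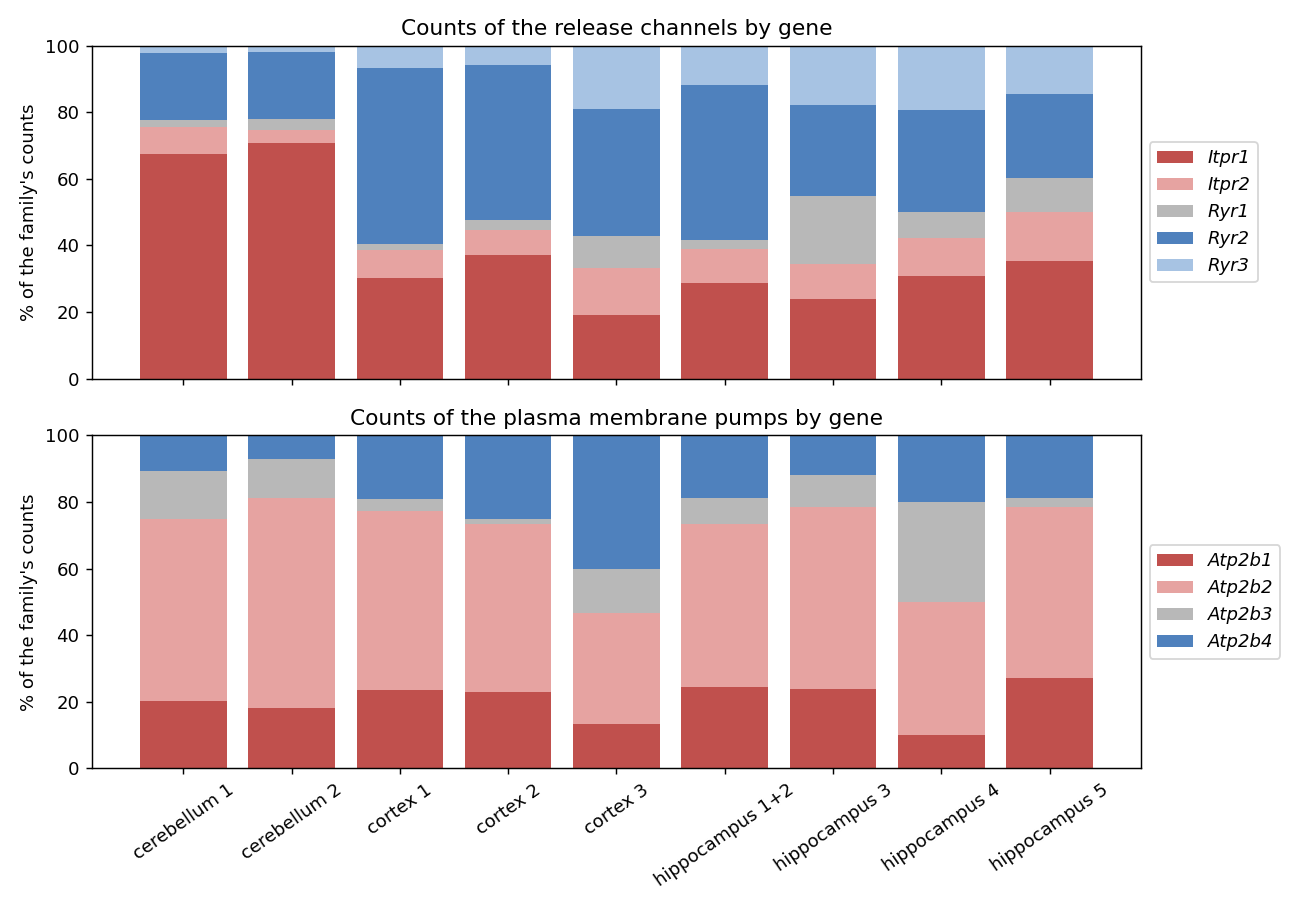
Share of each gene, in percent, of the counts of the 5 release channels (top) and of the 4 plasma membrane pumps (bottom) in each of the 9 samples (horizontal axis). Itpr1 holds 67.7 and 70.7% of the channel counts in cerebellum and at most 37.1% in any forebrain sample, whereas Atp2b2 leads the pumps in both cerebellum samples and in all forebrain samples except cortex 3, where Atp2b4 holds 40% of 15 counts.

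Atp2a2, the pump of the endoplasmic reticulum, was not called in any of the comparisons. It had 419 and 547 CPM in cerebellum, against 618, 914 and 168 CPM in cortex and 353, 579.6, 365 and 743 CPM in hippocampus. The forebrain range enclosed cerebellum, and the log2 fold change was -0.33 (SE 0.47, adjusted p = 0.832, edgeR). Between cortex and hippocampus it was 0.15 (SE 0.46, adjusted p = 0.999, edgeR).

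Atp2b2, a fast plasma membrane pump of neurons and hair cells, was the highest of the 10 genes per coding length in both cerebellum samples. It had 1571 and 1788 CPM in cerebellum, against 2018, 1828 and 420.2 CPM in cortex and 836, 622, 182 and 882 CPM in hippocampus. Cerebellum overlapped cortex and stood above all hippocampus samples. The log2 fold change was 0.42 (SE 0.51, adjusted p = 0.794) against forebrain, -0.11 (SE 0.61, adjusted p = 0.976) against cortex and 0.95 (SE 0.51, adjusted p = 0.336) against hippocampus in edgeR. Without cortex 3, hippocampus 3 and hippocampus 4 the last value was 0.95, and it then rests on cerebellum 1 alone.

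Atp2b3, a plasma membrane pump found almost only in neurons, was the other gene that separated in favour of cerebellum, although it was not called. Only its cerebellum samples were high enough to carry it past the filter on low counts. Its separation and its test are therefore in part set by that filter. It had 419 and 339 CPM in cerebellum, against 130.2, 53.8 and 168 CPM in cortex and 130.5, 111, 137 and 46.4 CPM in hippocampus. Both cerebellum samples stood above every forebrain sample. The log2 fold change was 1.6 (SE 0.56), with an adjusted p = 0.0532 that just missed the threshold in edgeR. It passed in 6 of 18 alternative settings. In edgeR these were RLE size factors (adjusted p = 0.049), no title code (1.87, adjusted p = 0.00663), no cortex 3 (adjusted p = 0.0188) and 10 separate libraries (adjusted p = 0.0182). The last counts hippocampus 1 and 2 as separate samples. The others left out cortex 3, hippocampus 3 and hippocampus 4, with the title code (1.81) or without it (2.13, adjusted p = 0.00374). With the code the value rests on cerebellum 1 alone. Among the settings that failed were DESeq2 (1.6, adjusted p = 0.238), and in edgeR library totals (1.68, adjusted p = 0.134) and no cortex 1 (1.61, adjusted p = 0.617). Against cortex alone the fold change was 1.84 (SE 0.79, adjusted p = 0.203) and against hippocampus alone 1.36 (SE 0.53, adjusted p = 0.107) in edgeR. Its log2 ratio of CPM was 1.68 within code A and 1.62 within code B. With TMM factors, as in the fit, these were 1.86 and 1.01. Code B has hippocampus 3 alone for the forebrain. The forebrain levels rest on 1 to 17 counts each.

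Atp2b1, a pump present in nearly all cells, had 576 and 517 CPM in cerebellum, against 879, 825 and 168 CPM in cortex and 414, 273, 45.6 and 464 CPM in hippocampus. Cerebellum lay inside the cortex range and above all hippocampus samples, and the log2 fold change against forebrain was -0.01 (SE 0.46, adjusted p = 0.997, edgeR).

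Atp2b4, the remaining plasma membrane pump, was the one gene whose cortex and hippocampus samples did not overlap. It had 304 and 198 CPM in cerebellum, 716, 914 and 504.3 CPM in cortex, and 322, 136, 91.1 and 325 CPM in hippocampus. Cortex averaged 712 ± 205 CPM over 3 samples and hippocampus 219 ± 123 CPM over 4 (SD), and the log2 fold change between them, 1.3 (SE 0.48), was not called (unadjusted p = 0.00739, adjusted p = 0.847, edgeR). Within code A the log2 ratio of cortex to hippocampus was 1.15, and within code C it was 1.77. With TMM factors these were 0.84 and 1.78. Cerebellum was below all cortex samples, with -1.24 on the log2 scale (SE 0.61, adjusted p = 0.322, edgeR). That value passed in 1 of 18 alternative settings, without cortex 3, hippocampus 3, hippocampus 4 and the title code (-1.46, adjusted p = 0.0367, edgeR).

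**Figure D3:**
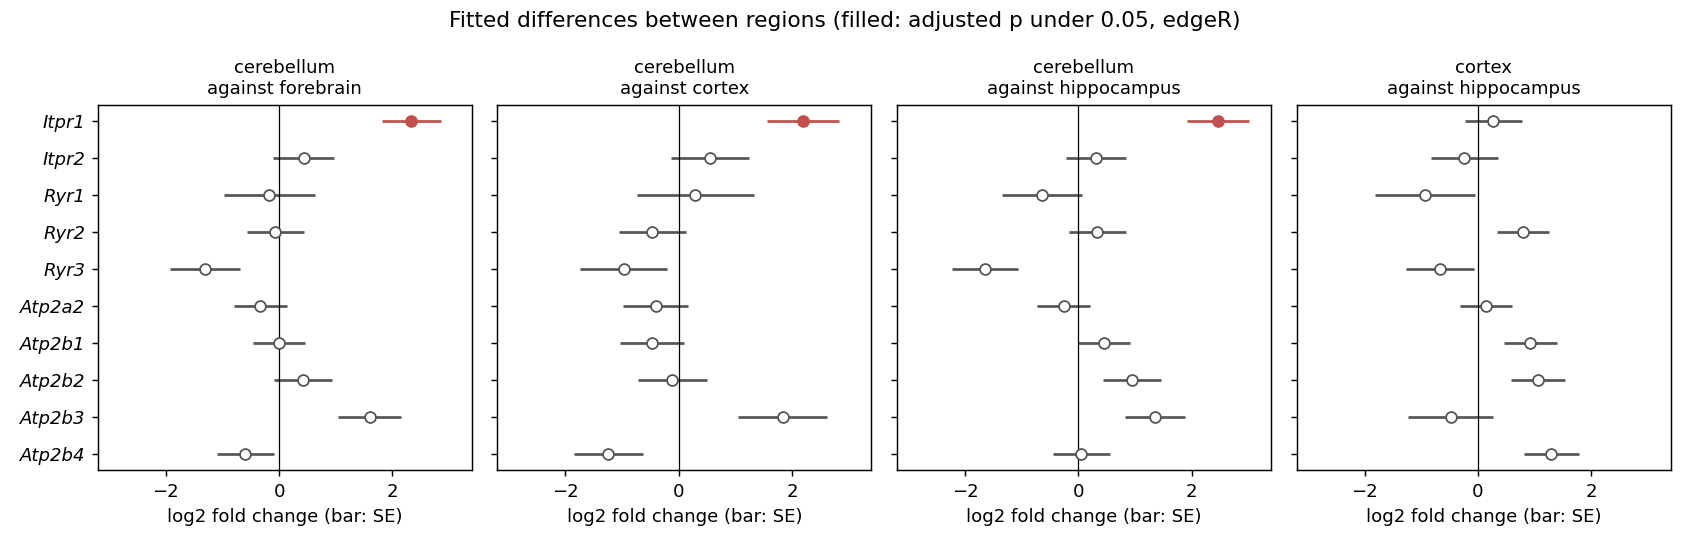
Fitted log2 fold changes (horizontal axes) of the 10 genes in the 4 comparisons, with bars of 1 approximate SE and filled points for an adjusted p under 0.05 in edgeR. Itpr1 is filled in the 3 comparisons of cerebellum, at 2.33, 2.20 and 2.47, and no gene is filled between cortex and hippocampus.

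Between cerebellum and forebrain the groups did not overlap for 2 of the 10 genes higher in cerebellum (Itpr1 and Atp2b3) and 1 lower (Ryr3). Over all tested rows these shares were 9.3% higher and 4.3% lower. Atp2b3 and Ryr3 passed the filter on low counts only through the group where they were higher. Against cortex alone 2 genes lay higher (Itpr1 and Atp2b3) and 2 lower (Ryr3 and Atp2b4), against 13.9% and 15.1% of all rows. Against hippocampus alone 4 lay higher (Itpr1, Atp2b1, Atp2b2 and Atp2b3) and 1 lower (Ryr3), against 15.9% and 8.26%. Between cortex and hippocampus 1 gene, Atp2b4, lay higher in cortex and 0 lower, against 2.44% and 1.45%. The median log2 fold change of the 10 genes was -0.03 against forebrain, beside 0.0023 over all tested rows, -0.26 against cortex, beside 0.05, and 0.32 against hippocampus, beside -0.02. It was 0.21 between cortex and hippocampus, beside -0.04. There 0 of 10 genes were called, as were 0 of all 1720 rows (0%) in edgeR, with 3 of the 10 genes and 68 of all rows at an unadjusted p under 0.05. DESeq2 called 0 of the 10 genes and 1 of all rows in that comparison.

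Set beside each other per kilobase of coding length, the genes fell into a steep order in cerebellum. Atp2b2 had 451 ± 41.1 CPM per kb and Itpr1 328 ± 13.5 CPM per kb (SD, n = 2), followed by Atp2a2 at 154 ± 28.9 and Atp2b1 at 149 ± 11.5 CPM per kb. Atp2b3 had 104 ± 15.4, Atp2b4 69.3 ± 20.8, Ryr2 52.9 ± 0.22 and Itpr2 29.4 ± 13.3 CPM per kb. Ryr1 and Ryr3 came last at 6.59 ± 2.48 and 5.45 ± 0.377 CPM per kb. Of the neighbours in this order, the samples of Atp2a2 and Atp2b1 overlapped, and so did those of Ryr1 and Ryr3. In cortex and in hippocampus the ranges of all neighbours overlapped across samples. Within every cortex sample Atp2b1 was above Itpr1, Itpr2 above Ryr3, and Ryr3 above Ryr1, in places on as few as 2 counts. Within every hippocampus sample Itpr1 was above Ryr2, and Itpr2 above Ryr3. The other neighbours there, at the head as well, changed places between samples. By mean, in cortex the order ran from Atp2b2 at 381 ± 234 to Ryr1 at 6.3 ± 4.15 CPM per kb (n = 3), with Itpr1 the fifth at 83.9 ± 42.8 CPM per kb. In cortex 3 Atp2b4, at 139 CPM per kb, was above Atp2b2 at 113 CPM per kb. By mean, in hippocampus it ran from Atp2b2 at 169 ± 85.8 to Ryr1 at 9.44 ± 5.57 CPM per kb (n = 4), with Itpr1 again the fifth at 58.9 ± 29.5 CPM per kb. Per coding length Atp2a2, with a mean of 163 ± 59.7 CPM per kb, was above Atp2b2 in 3 of the 4 hippocampus samples. Only hippocampus 1+2 had Atp2b2 higher (224 against 113 CPM per kb for Atp2a2). In hippocampus 5 the levels were almost equal, at 237.3 CPM per kb for Atp2a2 and 236.6 for Atp2b2. In hippocampus 4 they rest on 8 and 4 counts.

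The place of Atp2b4 depends on the length used: it ranked 2 in cortex per coding length and 6 per transcript length (60.7 CPM per kb), since its transcript of 11725 bases holds only 3615 coding bases. The mean of Atp2b2 in hippocampus stayed above that of Atp2a2 per transcript length, at 138 against 114 CPM per kb. Their order in single samples was not compared per transcript length. Those transcripts, of 4586 and 4486 bases, are closer in length than the coding sequences of 3729 and 3132 bases. In CPM, Atp2b2 was above Atp2a2 in hippocampus 3 (622 against 579.6) and hippocampus 5 (882 against 743). Atp2b2 was below Atp2a2 in hippocampus 4 (182 against 365). The order in single samples may therefore differ by the length used. The order of Atp2b2 and Itpr1 at the head in cerebellum, and of Ryr1 and Ryr3 at the end in each region, was the same per transcript length.

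Rows of olfactory receptor genes, which brain tissue is not known to use to any large extent, gave a level per coding length to set beside these, a choice made after seeing the data. Over 764 such rows it was 3.79 and 3.85 CPM per kb in cerebellum, 1.07 to 5.24 in cortex and 0.965 to 6.64 in hippocampus, with the highest value in hippocampus 3. Itpr1 stood at 84.2 and 87.7 times that level in cerebellum, against 7.78 to 79.4 times in cortex and 4.2 to 99.2 times in hippocampus. Ryr3 stood at 1.51 and 1.34 times that level in cerebellum, where 5.3 and 11.2 counts would lie at the olfactory level against 8 and 15 observed. In forebrain Ryr3 stood at 4.37 to 8.4 times in cortex and at 1.75 to 23.0 times in hippocampus. Ryr1 stood at 1.27 and 2.16 times in cerebellum, against 2.11 to 3.32 times in cortex and 0.97 to 15.8 times in hippocampus. The cerebellum levels of Ryr1 and Ryr3 thus lay close to that of the olfactory rows.

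**Figure D4:**
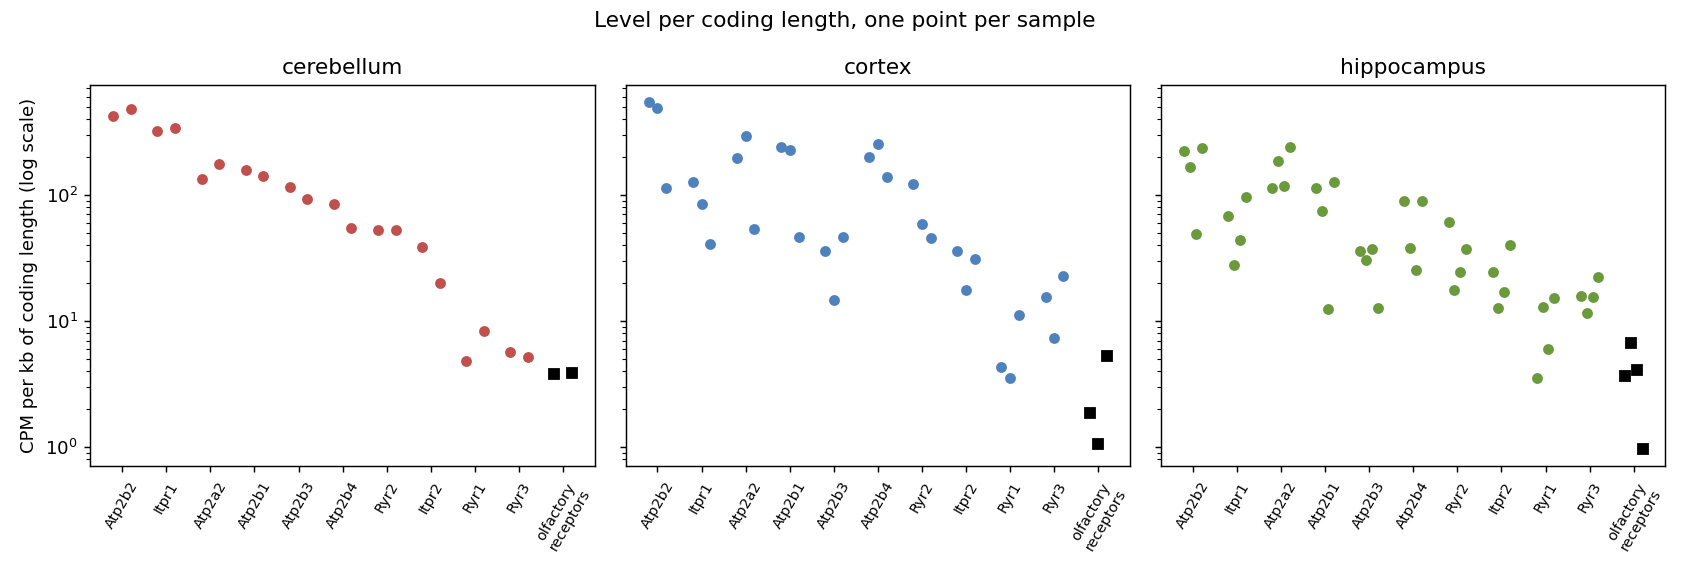
CPM per kilobase of coding length (log scale) of the 10 genes, in the order of their cerebellum means, and of 764 olfactory receptor rows (black squares), with 1 point per sample in each region. In cerebellum Atp2b2 and Itpr1 lie highest, at 451 and 328 CPM per kb on average, and Ryr1 and Ryr3 lie within 2.16 times of the olfactory rows.

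Genes of the pathway that opens the inositol trisphosphate receptor had calls in both directions. Of 28 listed genes between metabotropic glutamate receptors and the channel, 11 were tested, 2 were called higher in cerebellum than in forebrain and 1 lower. Over all 1720 tested rows 3.9% were called higher and 3.78% lower. The list had a median log2 fold change of -0.18, beside 0.0023 over all tested rows. Homer2, a scaffold that links metabotropic glutamate receptors to Itpr1, was higher by 2.34 on the log2 scale (SE 0.73, adjusted p = 0.0203, edgeR), averaging 228 ± 78.2 CPM in the 2 cerebellum samples against 103 ± 92.8 CPM in the 7 forebrain samples (SD). These means lie closer together than the fitted value, and they carry neither its TMM factors nor its title code. Homer2 was called against cortex (3.27, adjusted p = 0.0381) and not against hippocampus (1.40, adjusted p = 0.226) in edgeR. Grm5, such a receptor known from forebrain neurons, had -0.92 (adjusted p = 0.314, edgeR).

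Other lists of calcium handling had no called gene between cerebellum and forebrain, where 7.67% of all tested rows were called. Of 13 further pumps and exchangers 3 were tested, all exchangers of sodium for calcium, with Slc8a1 at -0.05 and Slc8a2 at -0.16 (adjusted p = 0.989 and 0.949, edgeR). Of 21 partners of the ryanodine receptors 8 were tested, and the nearest to a call were Calm3, a calmodulin gene (-1.62, adjusted p = 0.0507), and Cacna1d, a voltage-gated calcium channel gene (1.18, adjusted p = 0.184, edgeR). Of 12 genes of store-operated entry only Stim1, the calcium sensor of the endoplasmic reticulum, was tested (-1.05, adjusted p = 0.436, edgeR). Of 12 buffers and chaperones only Ncald was tested (-1.72, adjusted p = 0.199, edgeR), and of 5 partners of the plasma membrane pumps only Cask (0.21, adjusted p = 0.934, edgeR). Of 9 mitochondrial uptake genes with a row, 0 passed the filter on low counts.

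Marker genes of cerebellar cell types were also at higher summed levels in cerebellum, beside the Itpr1 and Atp2b3 differences. The sum over 12 Purkinje cell markers was 796 to 1135 CPM in cerebellum, against 322 to 756 CPM in forebrain, and that of 12 granule cell markers was 6399 to 7878 CPM in cerebellum, against 260 to 882 CPM in forebrain. Of the Purkinje markers 2 were tested and 0 called. None of the markers of either list was at 0 over all samples. The part of cell composition in the Itpr1 and Atp2b3 values was not tested, and in tissue samples fewer cells of a type and less RNA per cell cannot be told apart.

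The 5 of 1719 other tested rows whose log2 CPM followed Itpr1 most closely over the 9 samples were Cacna1a (Pearson r = 0.942), the P/Q-type calcium channel gene, D430041D05Rik (0.922), the cadherin gene Celsr3 (0.921), Trpm3 (0.918), a cation channel gene, and Cacna1e (0.907), the R-type calcium channel gene. These correlations rest on 9 points that share library depth and a large step between cerebellum and forebrain, and they are given as a description. D430041D05Rik was higher in cerebellum by 2.2 (adjusted p = 0.00097, edgeR), and Cacna1a, at 1606 CPM in cerebellum against 615 CPM in forebrain, had 1.25 (adjusted p = 0.106, edgeR). Ryr2 was followed most closely by Ubr3 (0.967), a ubiquitin ligase gene, and by Ttbk2, Secisbp2l, Pcnx2 and Ptprt (0.864 to 0.9). Among the 10 genes themselves, Itpr1 correlated most with Atp2b2 (0.645) and Atp2b3 (0.585) and most negatively with Ryr3 (-0.813).

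FMRP is known to associate with RNA that holds the words TGGA or AGGA and ACTG or ACTT. In the coding strand Itpr1 held 19.9 of the first pair per kb, with a median of 15.9 over 18565 genes, which put it at percentile 78.7, and it held 8.12 of the second pair, with a median of 8.5. Atp2b2, the highest of the 10 genes per coding length in cerebellum, held 14.2 of the first pair per kb (percentile 36.3), the fewest of the 10. Words were counted at every position and may overlap, and their presence is no sign of binding.

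**Figure D5:**
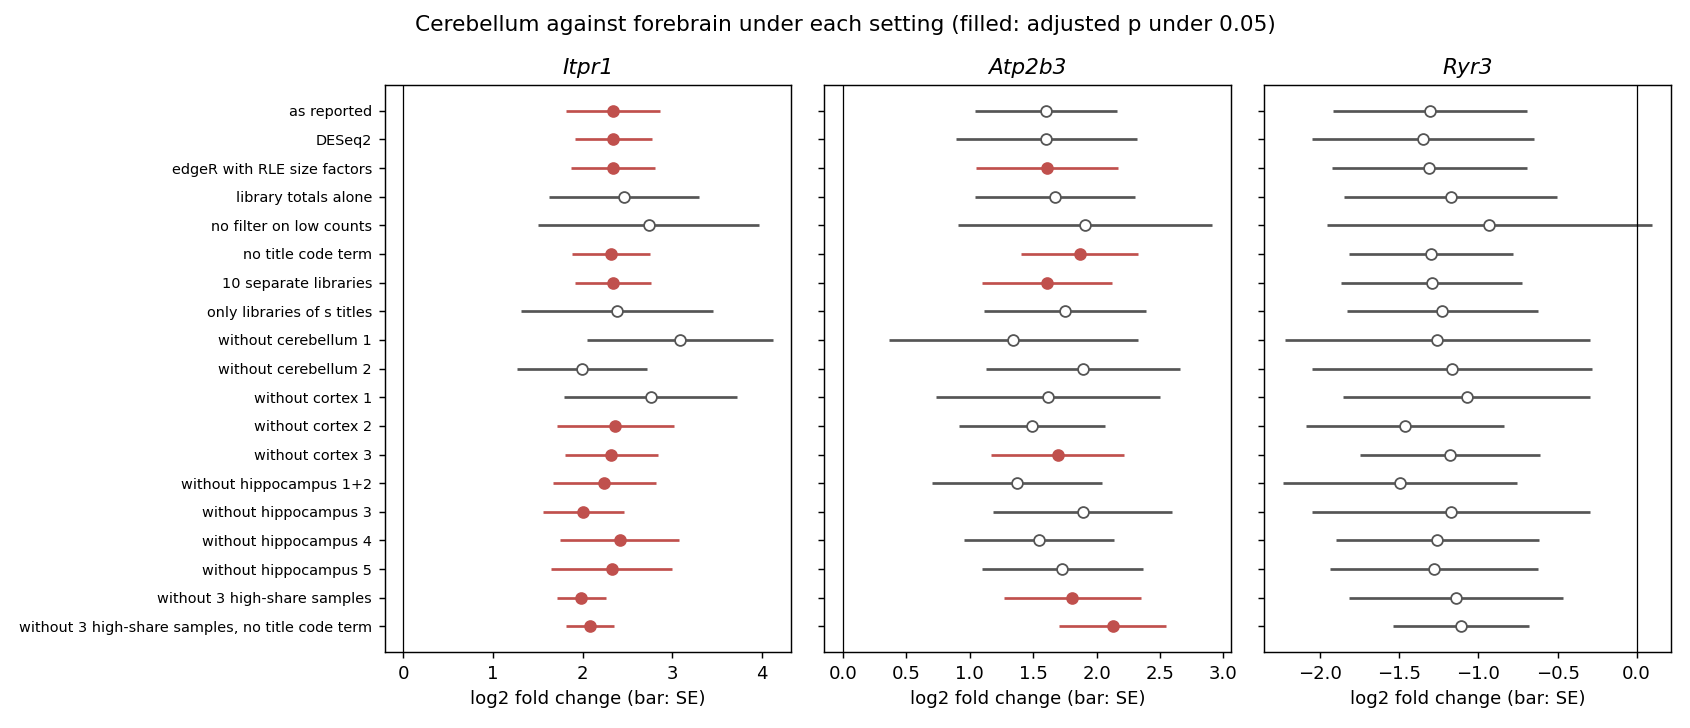
Log2 fold change of Itpr1, Atp2b3 and Ryr3 between cerebellum and forebrain (horizontal axes, bars of 1 SE) under each setting of the test (rows), with filled points for an adjusted p under 0.05. The direction is the same in every row that is shown, while the Itpr1 call is absent in 6 of 18 alternatives, the Atp2b3 call appears in 6 of them and Ryr3 is called in 0.

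In genome annotation some of the genes overlap others, and the use of strand in counting is not given. Exons of Ryr3, on chromosome 2 from 112631355 to 113217096, share 916 bases with Aven on the opposite strand, and exons of Ryr1, on chromosome 7 from 29003344 to 29125179, share 864 bases with the antisense gene Gm26604. The table lists 9 counts for Aven and 7 for Gm26604 over all libraries. Exons of Itpr1 share 181 and 108 bases with a pair of genes on the opposite strand. Atp2b3 lies on chromosome X from 73503086 to 73571005 and Atp2b2 on chromosome 6 from 113743831 to 114042613, and no exon of either overlaps an exon of another annotated gene. The remaining genes are Itpr2 on chromosome 6 from 146108299 to 146502223, Ryr2 on chromosome 13 from 11553102 to 12106945, Atp2a2 on chromosome 5 from 122453513 to 122502225, Atp2b1 on chromosome 10 from 98914406 to 99026143 and Atp2b4 on chromosome 1 from 133699457 to 133801041.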

How the data were processed

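The authors deposited whole-number fragment counts per gene symbol, 1 column per library, and these counts were used as deposited. Per the labels' protocols, ground tissue was crosslinked with 3 exposures of 400 mJ at 254 nm, FMRP was immunoprecipitated and libraries were made with a small RNA ligation kit. The submitters' processing notes name mm10, Bowtie 0.12.7 and Picard. For the counting program, annotation, strand, duplicates and filters the sources used here give nothing.

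CPM were computed from library totals. Regions were compared over 9 samples by edgeR 4.0.16 (R 4.3.3, quasi-likelihood), after TMM scaling and a low-count filter (filterByExpr, grouped by region) that kept 1720 rows, all 10 genes among them, with the title code as a block, 4 residual degrees of freedom and Benjamini-Hochberg adjusted p under 0.05. The SE is the absolute log2 fold change over the square root of F and is approximate. Hippocampus 1 and 2 were summed because their chi-square over 1873 rows came to 1.03 per degree (p = 0.191), while the other 13 pairs of one region had 1.51 to 22.1. DESeq2 1.42.0 was an alternative. The test was tested on simulated data. Lengths, coordinates and sequences come from GENCODE M21 (GRCm38), taking the transcript with the longest coding sequence. Named beyond the 10 genes are list members that were called, otherwise the 2 with the smallest p, and the 5 rows most like Itpr1 and Ryr2. The members and lists were chosen with earlier results of these data known. 0 sample columns were left unmapped. Some called genes of the inositol trisphosphate list and some coding stretches are not reported here.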

Additional observations from a re-analysis of the deposited data

Results flagged for a closer look

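One library, with 30344 counts, is titled as cortex but labelled as hippocampus tissue, and it was left out of every comparison. It held more than 3 counts of 9 of the 10 genes. The levels there were 264 CPM for Itpr1, 165 CPM for Itpr2, 790.9 CPM for Ryr2, 230.7 CPM for Ryr3 and 428 CPM for Atp2a2. The plasma membrane pumps had 230.7 CPM for Atp2b1, 790.9 CPM for Atp2b2, 165 CPM for Atp2b3 and 494 CPM for Atp2b4. Ryr1 had 2 counts. No hippocampus sample lay far enough from the other 3 to be singled out for any of the 10 genes.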

How the results depend on the processing

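The number of all rows called between cerebellum and forebrain was 132 (67 higher and 65 lower). It was 87 with DESeq2, 54 with library totals (37 higher and 17 lower, with the median of all rows at 0.12), 1 with no filter on low counts, 85 with s-titled libraries alone, 215 without cortex 3, hippocampus 3 and hippocampus 4, and 253 when the title code was dropped as well; leaving out single samples gave 2 to 176 (81 without hippocampus 1+2). Against cortex it was 79, with 43, 16, 0, 5, 142 and 201 under the same settings and 0 to 117 over single samples. Against hippocampus it was 110, with 70 by DESeq2, 45 with library totals, 0 with no filter, 187 with 10 separate libraries, 185 without the 3 samples and 5 to 191 over single samples (42 without hippocampus 1+2). Between cortex and hippocampus it was 0, with 1 by DESeq2, RLE factors or 10 libraries, 3 without the 3 samples, and 0 to 1 over single samples. Of the 10 genes, 1 was called against forebrain. This count was 2 with RLE factors, no title code, 10 libraries, or without the 3 samples with or without the code, 0 with library totals, no filter or s titles, and 0 to 2 over single samples. Against cortex it was 1, with 2 for no title code, 3 when the 3 samples and the code were dropped, 0 for library totals, no filter or s titles, and 0 to 1 over single samples. Against hippocampus it was 1, with 3 for 10 libraries or without the 3 samples, 2 when the code was dropped too, 0 for library totals, no filter or s titles, and 0 to 2 over single samples. The cause of these moves was not tested.

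The title code served as the replicate block. Deviations from the region means correlated with a median r of 0.13 over 8 pairs of the same code (-0.067 to 0.484) and -0.05 over 18 pairs of different codes, so the code shows no firm pairing. With no replicate block, Itpr1 against forebrain was 2.32 (adjusted p = 0.00049, edgeR), and 156 rows were called against forebrain, 114 against cortex and 83 against hippocampus.

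Of 704 values of single genes, 58 changed sign, and 0 of these were called in either setting. Against forebrain, Atp2b1 (-0.01) had 0.0027 with DESeq2, 0.0018 with RLE factors, 0.10 with library totals, 0.34 with no filter, 0.33 with no replicate block, 0.19 with s titles, 0.096 without the 3 samples and 0.052 when the code was dropped too, and -0.079 to 0.14 over single samples. Ryr1 (-0.17) had 0.043 with library totals, 0.29 with no filter, 0.046 with no replicate block, and -0.69 to 0.64 over single samples. Ryr2 (-0.06) had 0.063, 0.33 and 0.10 under these 3 settings, 0.064 with s titles, and -0.50 to 0.81 over single samples. Atp2a2 (-0.33) had 0.030 with no filter, 0.021 without the 3 samples, and -0.64 to 0.071 over single samples. Against cortex, Atp2b2 (-0.11) had 0.11 with no filter, 0.47 with no replicate block, 0.065 with s titles, 0.098 when the 3 samples and the code were dropped, and -0.41 to 0.30 over single samples. Over single samples Ryr1 ran between -0.30 and 0.99 and Ryr2 between -0.82 and 0.51. Against hippocampus, Atp2a2 (-0.26) had 0.25 with no filter, 0.24 without the 3 samples, 0.15 when the code was dropped too, and -0.64 to 0.20 over single samples (-0.54 without cerebellum 1). Ryr2 (0.33) had -0.19 without the 3 samples and -0.17 to 1.12 over single samples, and Atp2b4 (0.05) had -0.28 when the 3 samples and the code were dropped and -0.0068 to 0.19 over single samples. Over single samples Ryr1 ran between -1.08 and 0.28 and Itpr2 between -0.13 and 0.54. Between cortex and hippocampus, Itpr2 (-0.24) had 0.054 with library totals, 0.20 with s titles and -0.59 to 0.11 over single samples (-0.48 without cortex 1), Atp2a2 (0.15) had -0.15 with no replicate block and -0.36 to 0.49 over single samples, and Itpr1 ran between -0.099 and 0.56.

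Settings without the 3 samples were chosen after seeing the data, and 9 of the 10 genes were tested in them. Where leaving out a sample leaves a region with 1 sample, that sample is assumed to vary like the rest. All 10 genes passed the filter, so the exact permutation test planned for genes below it had no gene to run on. Depth limits the genes of few counts: in the shallowest sample 1 count is worth more than the whole cerebellum level of Ryr3.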
